A study of Homo sapiens with 3 samples.

Results

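Classical cadherins are adhesion receptors that span the plasma membrane and bind cadherins on the neighbouring cell, and catenins are the cytoplasmic proteins that tie them to actin. The 9 genes described here are 5 cadherins (CDH1, CDH2, CDH3, CDH6 and CDH11) and 4 catenins (CTNNA1, CTNNB1, CTNND1 and JUP), taken by symbol, and they account for 24 of 28848 RefSeq transcript rows and 9 of 18673 genes in the table. RNA sequencing measured poly-A RNA of A2780 cells, an ovarian cancer line whose tumour of origin was undifferentiated. Cells with exogenous miR-181a gave 2 libraries, p181a#1 and p181a#2 (pool 1 and pool 2 here), and cells with the empty pBABE retroviral vector gave 1. In the labels these cells are polyclonal pools at one point and clones at another, and separate cultures are not stated. The p-values thus rest on the spread between the 2 miR-181a libraries, part of which may be technical. The single vector library adds no spread to them. Expression of the microRNA was not analysed here.

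At an adherens junction the cadherin tail holds beta-catenin (CTNNB1) or its close relative plakoglobin (JUP), and either of these holds alpha-catenin (CTNNA1), which binds actin. p120-catenin (CTNND1) binds closer to the membrane and keeps the cadherin at the cell surface. Beta-catenin outside junctions also carries the Wnt signal to the nucleus. Loss of E-cadherin (CDH1) with gain of N-cadherin (CDH2) is the textbook cadherin switch of epithelial to mesenchymal transition.

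The study looked for target genes of miR-181a, so the microRNA and its seed matches in the members are shown first. A microRNA pairs through its seed, bases 2 to 8, with sites that lie mostly in 3 prime untranslated regions. The mature sequence from RefSeq (GRCh38.p14), the same from the loci MIR181A1 on chromosome 1 and MIR181A2 on chromosome 9, is given with its seed in capitals.
hsa-miR-181a-5p: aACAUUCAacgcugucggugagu
The full seed match reads TGAATGT in DNA letters, and a shorter form with an A after it reads GAATGTA. In 1 transcript per gene (GENCODE on GRCh37, sense strand), TGAATGT was found at 1 place in CTNNA1 and 1 in CTNND1, and GAATGTA, counted where it did not overlap TGAATGT, at 1 place in CTNND1 and 2 in CDH11. Each site is printed with its motif in capitals.
CTNNA1, chr5:138270654-138270683, plus strand: tatgaattaattTGAATGTtttttacacta
CTNND1, chr11:57586119-57586148, plus strand: attcttaaaaatTGAATGTggctgaagttg
CTNND1, chr11:57584654-57584683, plus strand: aggagctagtagGAATGTAcatgaagcaat
CDH11, chr16:64979316-64979345, minus strand: ccttttctctagGAATGTAtttggattaga
CDH11, chr16:64977759-64977788, minus strand: actgccccactaGAATGTAagctccatgag
Neither motif was found in the 3 prime untranslated regions of CDH1, CDH2, CDH3, CDH6, CTNNB1 and JUP, and the 8-base match TGAATGTA was found in none of the 9. Of 12247 tested genes with a 3 prime untranslated region, 20.8% hold TGAATGT, 14.7% GAATGTA and 6.72% TGAATGTA. Here the share for GAATGTA includes copies that lie within TGAATGTA. A match is a run of letters and not a measured site. CDH2 and CTNNB1, the members with the highest folds below, hold none, as CDH1, CDH3, CDH6 and JUP do not. A link between matches and folds was not tested.

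The values are coverage, the median read density over 50 bp windows along a transcript, so levels of different genes can be set beside each other. Coverage summed to 907092 in pool 1, 719263 in pool 2 and 798228 in the vector library, and the table gives no counts, so depth is unknown. Of the 8822 rows listed at 0 in both pools, 5549 (62.9%) were above 0 in the vector library, while 197 of the 3694 rows at 0 in the vector library were above 0 in both pools. Markers of cell types that such a culture should lack followed the same direction. The 8 endothelial markers summed to 0.282 in pool 1 and 0.521 in pool 2 and to 238 in the vector library, 8 immune markers to 2.36 and 2.44 and to 38.0, and 4 erythroid markers to 0.526 and 0 and to 53.8. Defining markers at 0 in both pools and above 0 in the vector library were KDR and VWF (endothelial), PTPRC and CD3E (immune) and HBB (erythroid). Their part in any member's fold was not tested. Of 8 epithelial and ovarian carcinoma markers, EPCAM, KRT7, KRT19, PAX8, WT1 and MUC16 were at 0 in both pools and KRT7 and WT1 also in the vector library. KRT8, at 13.4 and 10.5 in the pools and 27.0 in the vector library, and KRT18, at 2.38 and 4.91 in the pools and 13.9 in the vector library, were the markers of that list above 0 in both pools. The 8 fibroblast markers summed to 1810 in pool 1, 1470 in pool 2 and 573 in the vector library. Of the 6 tested, 5 were higher in both pools, beside 44.6% of all tested genes, and in the test below 0 rose and 0 fell. The highest values were those of COL3A1 (986 and 717 in the pools and 249 in the vector library) and DCN (480, 420 and 144). COL1A1 went the other way (0 and 0.706 in the pools and 7.41 in the vector library), and FAP was at 0 in all 3 libraries.

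Among the 5 members that passed the filter on low coverage and were tested, N-cadherin rose with miR-181a and none fell, while K-cadherin (CDH6) and OB-cadherin (CDH11), listed at 0 in both pools and above 0 in the vector library, were not tested. In bulk RNA, a change in the share of cells that express a gene and a change in RNA per cell cannot be told apart. E-cadherin and P-cadherin were listed at 0 in all 3 libraries. Beta-catenin and alpha-catenin were higher in both pools without passing the test, plakoglobin was level with the vector library in pool 1 and lower in pool 2, and the direction of p120-catenin differed between its transcript rows. The test was limma on log2(coverage + 1) over 12552 genes, with 1 residual degree of freedom. It had 5 members in it, of which 1 rose, beside 1.00% of all tested genes, and 0 fell, beside 21.7%. Of the 2726 genes that fell, 1536 were at 0 in both pools, as no tested member was. The shares of genes that fell or were lower are thus not a like background for the tested members. At an unadjusted p of 0.05, 2 members were higher and 0 lower, where 4162 of the 12552 tested genes were higher or lower. By size, 2 of the 5 were at least 1 log2 unit higher in both pools (2.53% of tested genes were) and 0 of the 5 at least 1 log2 unit lower (27.3% were). Of the other 4 members, CDH1, CDH3, CDH6 and CDH11, which did not pass the filter, CDH6 had a log2 fold of -2.54 in both pools.

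**Figure D1:**
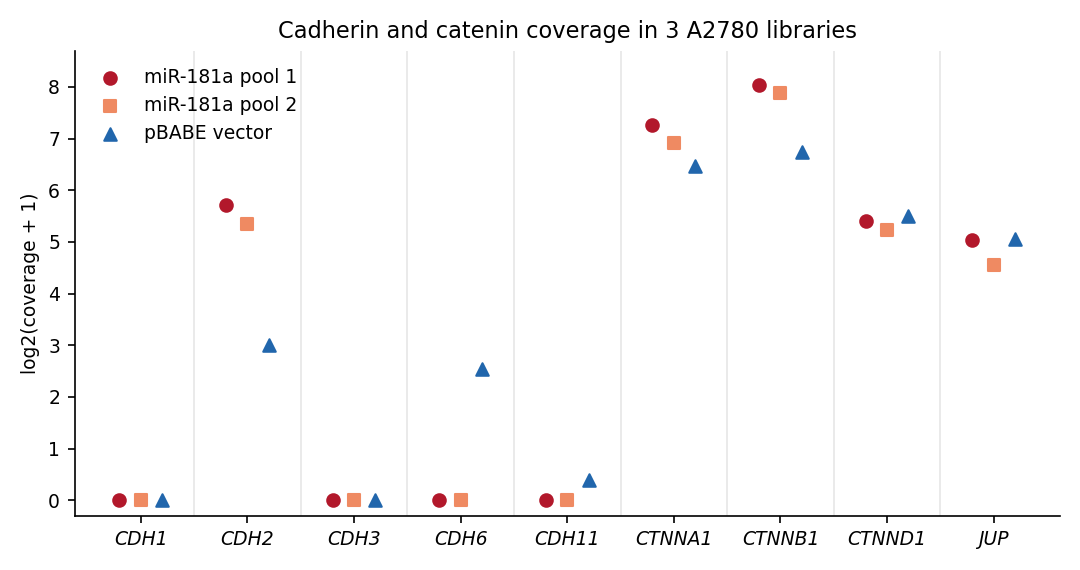
Coverage of the 9 members as log2(coverage + 1) on the vertical axis, with 1 point for each library. CDH2 is at 51.5 and 39.7 in the pools and 7.02 in the vector library on the linear scale, CTNNB1 is the highest member in each library, and CDH1 and CDH3 lie at 0 throughout.

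CDH2 (NM_001792, chromosome 18, 25512843 to 25757910 on GRCh37, minus strand) encodes N-cadherin, the classical cadherin of neural and mesenchymal cells. Its coverage was 51.5 in pool 1 and 39.7 in pool 2, against 7.02 in the vector library. Both pools lay above the vector library, as they did for 44.6% of all tested genes. The gap to the vector library was larger than the gap between the pools. The mean was 45.6 ± 8.34 (SD, n = 2) in the pools. The log2 fold was 2.71 in pool 1 and 2.34 in pool 2, with a mean of 2.53 (SE 0.31, limma adjusted p = 0.0472), and was the 6th highest of the 12552 tested genes. The adjusted p was 0.0557 with no filter, 0.0741 with a pseudocount of 10 and 0.0775 without a variance trend, so the call ended there, while the fold was above 0 in all 13 alternatives (1.70 to 4.15). CDH2 was also ranked among all genes within its own library, which needs no scaling between libraries. It stood at percentile 87.4 in pool 1, 87.4 in pool 2 and 42.8 in the vector library. Values at 0 enter such a rank, and 32.3%, 32.2% and 12.8% of rows were at 0, in that order of libraries.

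The genes whose 3 values lay nearest to those of CDH2 were SV2A, TDRD3 and CPT1A. Their Euclidean distances from it over the 3 libraries were 0.19, 0.32 and 0.52 on the log2(coverage + 1) scale. SV2A, a synaptic vesicle glycoprotein gene, had a coverage of 50.1 and 35.0 in the pools and 6.75 in the vector library. With 3 libraries this likeness is a description only.

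CDH1 (NM_004360, chromosome 16, 68771195 to 68869440) encodes E-cadherin, the cadherin of epithelia, and CDH3 (NM_001793, chromosome 16, 68670092 to 68761371) encodes P-cadherin. Both were listed at 0 in pool 1, pool 2 and the vector library. No CDH1 value was above 0 on either side, so the table shows no fall of E-cadherin beside the rise of N-cadherin. A median over windows is 0 when most windows hold no read, so a value of 0 does not mean that no read was found.

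CDH6 (NM_004932, chromosome 5, 31193793 to 31329253) encodes K-cadherin, a type II cadherin known from fetal kidney and from kidney and ovarian carcinoma. It was listed at 0 in pool 1 and pool 2, against 4.82 in the vector library. CDH11 (NM_001797, chromosome 16, 64977656 to 65160015) encodes OB-cadherin, a type II cadherin of mesenchymal cells and osteoblasts. It was listed at 0 in both pools, against 0.305 in the vector library. Among the 8822 rows at 0 in both pools, 28.6% had a vector value at least as high as that of CDH6 and 58.6% one at least as high as that of CDH11. Neither gene was tested, and the vector values of both are thus of a size common among such rows.

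Other classical cadherins were taken from a list of 13. Of these 5 were tested, 0 rose and 3 fell by limma, and 11 of the 13 were at 0 in both pools. The 3 that fell, CDH18 at 44.8, CDH9 at 16.0 and CDH7 at 13.5 in the vector library, were listed at 0 in the pools. The vector value alone brought them past the filter. All 1536 tested genes at 0 in both pools were called as fallen, since equal pool values leave no spread between the pools. These calls were thus fixed by the filter and are no separate evidence of a fall. Over all tested genes 21.7% fell, and 30.6% of all rows were at 0 in both pools. CDH18 has a second row with 3.84 in the vector library, and CDH7 one with 0, so CDH7 met the size rule in 1 of its 2 rows. CDH10 and CDH24, type II cadherins, were the only other classical cadherins above 0 in the pools. CDH10 had 6.36 and 10.0 in the pools and 1.49 in the vector library (limma adjusted p = 0.0972), and CDH24 had 11.6 and 7.64 in the pools and 3.85 in the vector library (limma adjusted p = 0.203). Neither passed the test, although both pools were above the vector library in each.

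Over all 18 classical cadherins of the table, coverage summed to 69.4 in pool 1, 57.3 in pool 2 and 105 in the vector library. CDH2 made up 74.1% and 69.2% of that sum in the pools and 6.66% in the vector library. The 15 cadherins listed at 0 in both pools gave 88.3% of the vector sum. These sums take the row of highest mean for each gene, and the vector sum rests on that choice, which was varied after seeing the data. With the mean of rows the sums were 69.0 and 57.3 in the pools and 77.9 in the vector library, of which CDH2 was 9.01%. With the row of lowest vector value they were 68.5 and 57.2 in the pools and 50.4 in the vector library, so the vector sum was then the lowest of the 3. CDH2 was 75.1% and 69.3% of that sum in the pools and 13.9% in the vector library, and the 15 cadherins at 0 in both pools gave 76.3% of the vector sum.

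CTNNB1 (chromosome 3, 41236232 to 41301587) encodes beta-catenin and was the member of highest coverage in every library. Its 3 rows shared 261 in pool 1 and 236 in pool 2, against 106 in the vector library for each row. Both pools lay above the 1 vector library, as they did for 44.6% of all tested genes. The log2 fold was 1.29 in pool 1 and 1.15 in pool 2, with a mean of 1.22 (SE 0.19), and did not pass (limma adjusted p = 0.0735). The median log2 ratio to the vector library of genes with a pool mean above 50 was 0.65 in pool 1 and 0.30 in pool 2. That set is chosen on the pools' own values, and the ratio moves with the choice: it was 0.58 and 0.23 where the average of all 3 libraries exceeded 50, and 0.38 and 0.02 where the vector value did. After each pool was shifted by the ratio of the first set the fold of CTNNB1 was 0.74 (limma adjusted p = 0.000111), but this shift also removes the offset between the pools from the spread that the test uses. Of the 2124 tested genes with a pool mean above 50, 60 had a higher fold than CTNNB1.

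CTNNA1 (NM_001903, chromosome 5, 137946656 to 138270723) encodes alpha-E-catenin, the link to actin. Its coverage was 153 in pool 1 and 119 in pool 2, against 88.1 in the vector library. Both pools were above the vector library, as in 44.6% of all tested genes. The mean log2 fold was 0.61 (SE 0.26, limma adjusted p = 0.267) and was 0.13 after the same shift. With library medians set equal and with quantile normalization it passed (limma adjusted p = 2.91e-08 and 0.0161).

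JUP (NM_021991, chromosome 17, 39910856 to 39943183) encodes plakoglobin, which serves both adherens junctions and desmosomes. Its coverage was 32.0 in pool 1 and 22.4 in pool 2, against 32.1 in the vector library. Pool 1 was level with the vector library and pool 2 lay below it. The mean log2 fold was -0.25 (SE 0.36, limma adjusted p = 0.653). It was -0.73 after the shift by genes above 50 (limma adjusted p = 0.00084) and 0.17 with library medians set equal, so its direction depends on scaling. The second row, NM_002230, had 32.0 and 20.6 in the pools and 32.4 in the vector library.

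CTNND1 (chromosome 11, 57520715 to 57587018) encodes p120-catenin and has 13 rows, which differ mainly in the vector library. Over the rows coverage ran between 41.1 and 44.5 in pool 1 and between 36.7 and 40.9 in pool 2, against 23.4 to 44.1 in the vector library. The highest row was 1.08 times the lowest in pool 1, 1.11 times in pool 2 and 1.88 times in the vector library. Row NM_001085467 and row NM_001085469 had the same 44.5 in pool 1 and 40.9 in pool 2, yet 25.2 and 36.3 in the vector library. The row with the highest mean, NM_001085458, had 41.1 and 36.7 in the pools and 44.1 in the vector library, and this tested row gave a mean log2 fold of -0.18 (SE 0.21, limma adjusted p = 0.59). It was the lone row lower in both pools, while 11 of the 13 were higher in both and the median of the mean log2 folds over rows was 0.45. With the mean of rows the log2 fold was 0.37, and with the row chosen without the vector value 0.48, and neither passed. The direction of CTNND1 thus depends on the transcript row. The rows overlap in sequence and share reads, so they are not replicates.

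**Figure D2:**
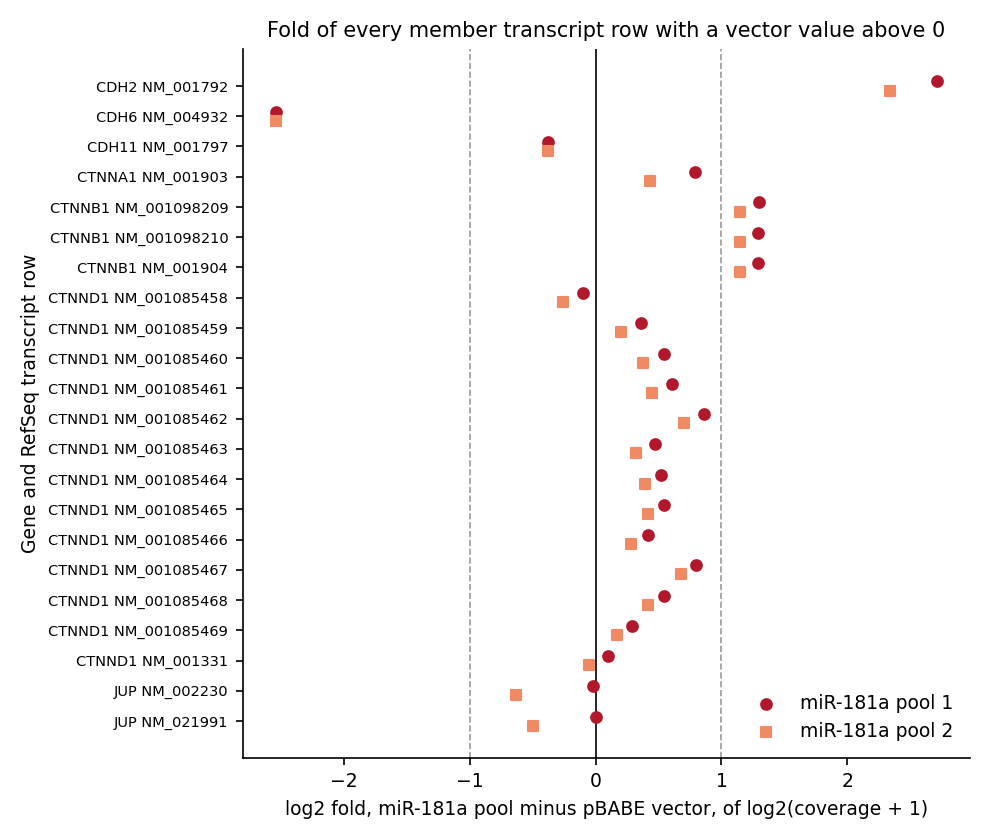
Log2 fold of each pool over the vector library (horizontal axis) for the 22 member rows with a vector value above 0 (vertical axis), with circles for pool 1 and squares for pool 2, and dashed lines at 1 log2 unit. The 3 CTNNB1 rows lie together beyond 1, whereas the 13 CTNND1 rows spread from -0.18 to 0.78 in mean fold.

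Rows of other genes showed the same property. Among 2589 genes with at least 2 rows above 0 in all libraries and a pool mean above 10, the highest row was at the median 1.06 times the lowest in pool 1, 1.06 times in pool 2 and 1.19 times in the vector library. A ratio above 1.5 was found in 9.54%, 9.85% and 31.3% of these genes, in that order of libraries. Of 476 genes whose rows had exactly equal deposited values in each pool, as those of CTNNB1 did, 355 (74.6%) had unequal rows in the vector library. In the other direction, of 184 genes with exactly equal rows in the vector library, 63 (34.2%) had unequal rows in a pool. CTNNB1 itself had 3 distinct vector values, all of which round to 106. The labels give the 3 libraries the same protocol and do not say whether the vector column was made in the same run of the processing as the pool columns. The part of this row spread in any member's fold against the single vector library was not tested.

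**Figure D3:**
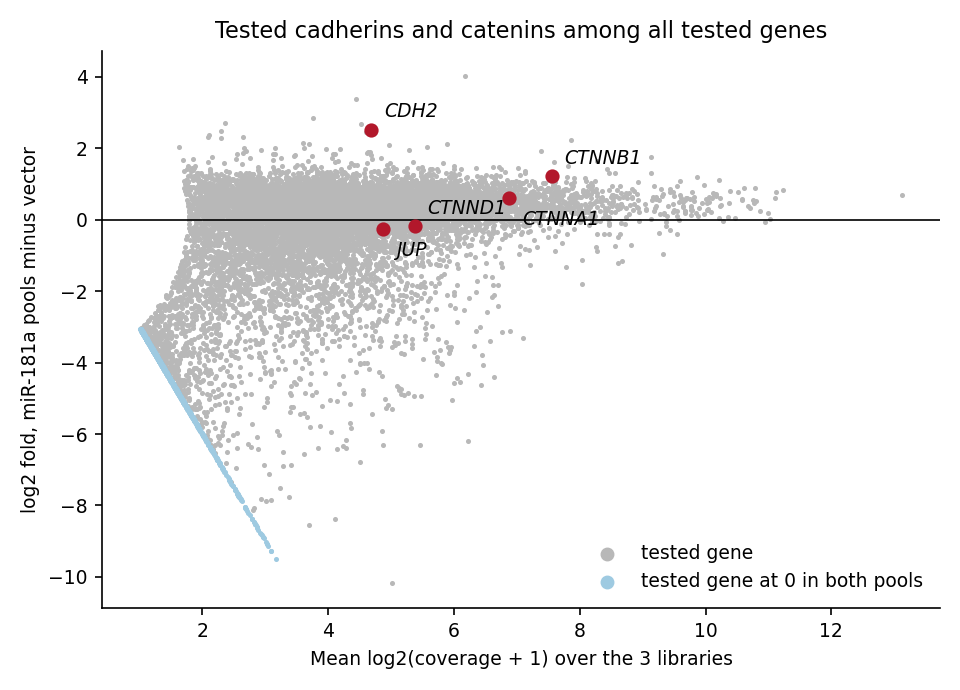
Mean log2 fold of the pools over the vector library (vertical axis) against mean log2(coverage + 1) over the 3 libraries (horizontal axis) for the 12552 tested genes, with the 5 tested members in red. CDH2 lies near the upper edge at 2.53, and the blue line of points holds the 1536 tested genes at 0 in both pools, where no member lies.

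Within a library the order of the members differed between the groups. In both pools it ran from CTNNB1 through CTNNA1, CDH2 and CTNND1 to JUP, with CDH1, CDH3, CDH6 and CDH11 at 0, and in the vector library CTNND1 and JUP stood above CDH2. The pool values of CDH2 (39.7 to 51.5) and CTNND1 (36.7 to 41.1) overlapped. Within the same library CDH2 was 1.25 times the tested CTNND1 row in pool 1 and 1.08 times in pool 2, and this difference was not tested. In pool 2 the highest CTNND1 row had 40.9, above CDH2 at 39.7, so their order there depends on the row. The other neighbouring members above 0 did not overlap.

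A ratio of members within a library is free of any single scaling factor per library. It is not free of quantile normalization, which the labels name, or of the row spread in the vector library. CDH2 stood at 0.197 of CTNNB1 coverage in pool 1 and 0.168 in pool 2, against 0.0663 in the vector library. CTNNA1 stood at 0.586 and 0.505 of CTNNB1 in the pools, against 0.833 in the vector library. JUP stood at 0.123 and 0.095 of CTNNB1 in the pools, against 0.304 in the vector library. Both pools were on the same side of the vector library in each ratio, with CDH2 higher relative to beta-catenin and the other catenins lower. JUP made up 11.0% and 8.68% of the sum of JUP and CTNNB1, the alternative partners of the cadherin tail, in the pools and 23.3% in the vector library. CTNND1 stood at 0.158 and 0.156 of CTNNB1 in the pools, against 0.417 in the vector library, for the tested row. Over its 13 rows this ratio ran from 0.158 to 0.171 in pool 1 and from 0.156 to 0.174 in pool 2, against 0.221 to 0.417 in the vector library. Coverage summed over the 4 catenins was 486 in pool 1, 414 in pool 2 and 270 in the vector library. These ratios are a description and were not tested.

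**Figure D4:**
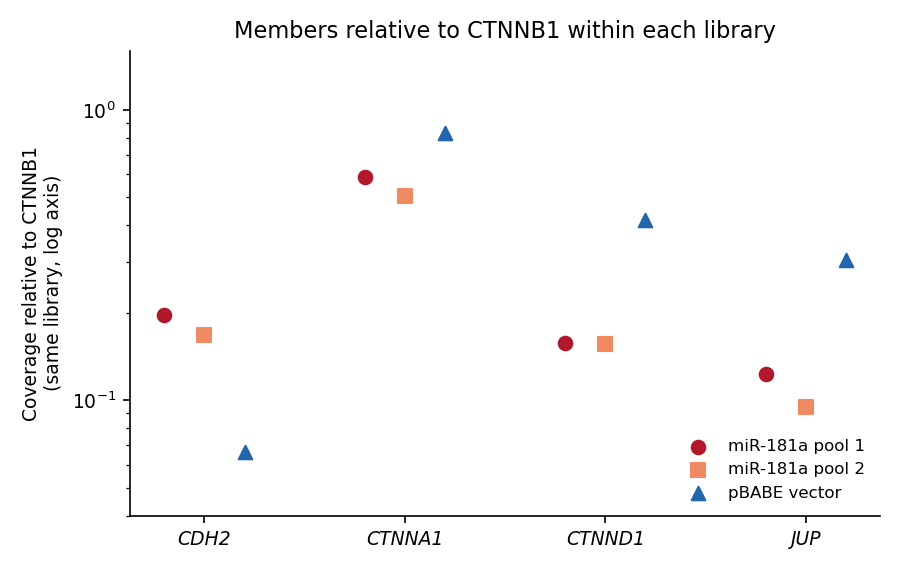
Coverage of CDH2, CTNNA1, CTNND1 and JUP relative to CTNNB1 in the same library, on a log axis, with 1 point for each library. CDH2 is at 0.197 and 0.168 in the pools and 0.0663 in the vector library, and the catenins lie lower in the pools than in the vector library.

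The other genes of the adherens junction were taken from 7 lists with 72 genes, of which 53 were tested. By limma 0 rose and 9 fell, beside 1.00% and 21.7% of all tested genes. At an unadjusted p of 0.05, 3 were higher and 12 lower, where 4162 of all 12552 tested genes were higher or lower. Of the 9 that fell, 6 were at 0 in both pools and thus passed the filter on the vector value alone. The median log2 fold was 0.27, beside 0.07 over all tested genes, and 28 of the 53 were higher in both pools, beside 44.6% of all tested genes.

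Of 11 linkers to actin, 8 were higher in both pools, and 0 rose and 0 fell. The median log2 fold was 0.56, but 0.09 after the shift by genes above 50, so its size depends on scaling. LIMA1, an actin-binding protein that joins alpha-catenin, had 52.0 and 34.7 in the pools and 14.1 in the vector library, a log2 fold of 1.52 (limma adjusted p = 0.152). VCL, which encodes vinculin, had 239 and 172 in the pools and 110 in the vector library (limma adjusted p = 0.227).

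Among 5 tested genes of nectins, the second adhesion system of the junction, and afadin, 0 rose and 1 fell (median log2 fold 0.41). MLLT4, which encodes afadin, the link of nectins to actin, had 8.12 and 6.82 in the pools and 65.3 in the vector library and fell (log2 fold -2.97, SE 0.29, limma adjusted p = 0.0331), but only 1 of its 3 rows met the size rule. PVR, the poliovirus receptor, had 52.7 and 34.7 in the pools and 16.5 in the vector library and did not pass (limma adjusted p = 0.185).

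Of the beta-catenin destruction complex, which marks free beta-catenin for degradation, 8 of 9 genes were tested, 0 rose and 0 fell, and 6 were higher in both pools (median log2 fold 0.38). The scaffold gene APC had 9.87 and 4.88 in the pools and 2.63 in the vector library, and the kinase gene GSK3B had 19.3 and 10.9 in the pools and 34.6 in the vector library. Neither passed (limma adjusted p = 0.283 and 0.263).

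Of 10 further catenin family genes, 5 were tested, 0 rose and 1 fell (median log2 fold 0.06). CTNND2, the delta-catenin of neurons, was at 0 in both pools and 37.9 in the vector library. CTNNBIP1, an inhibitor of beta-catenin and TCF binding, had 18.2 and 14.1 in the pools and 9.89 in the vector library (limma adjusted p = 0.323).

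Among 15 genes of cadherin cleavage, phosphorylation and turnover, 0 rose and 4 fell (median log2 fold 0.14). SRC, the tyrosine kinase, had 7.77 and 8.87 in the pools and 44.6 in the vector library (log2 fold -2.29, SE 0.29, limma adjusted p = 0.0497) and was lower by the size rule in both of its rows. FYN and PTPRM, at 18.5 and 7.59 in the vector library, were at 0 in both pools for the rows tested. By the size rule 2 of the 3 FYN rows and 1 of the 2 PTPRM rows were lower. The other PTPRM row was at 0 in the vector library. PTPRK, a receptor phosphatase, had 3.47 and 3.12 in the pools and 7.59 in the vector library and fell (limma adjusted p = 0.0307), but another row of it is at 0 in the vector library. The N-cadherin sheddase gene ADAM10 had 46.9 and 39.4 in the pools and 24.5 in the vector library, and the gamma-secretase gene NCSTN 96.9 and 96.0 in the pools and 41.4 in the vector library, and neither passed (limma adjusted p = 0.187 and 0.0603).

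Of 8 repressors of CDH1 transcription, 4 were tested, and 0 rose and 0 fell (median log2 fold -0.06). SNAI2 had 37.0 and 20.2 in the pools and 11.4 in the vector library (limma adjusted p = 0.278), and TCF3 had 34.5 and 20.3 in the pools and 36.6 in the vector library (limma adjusted p = 0.551).

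**Figure D5:**
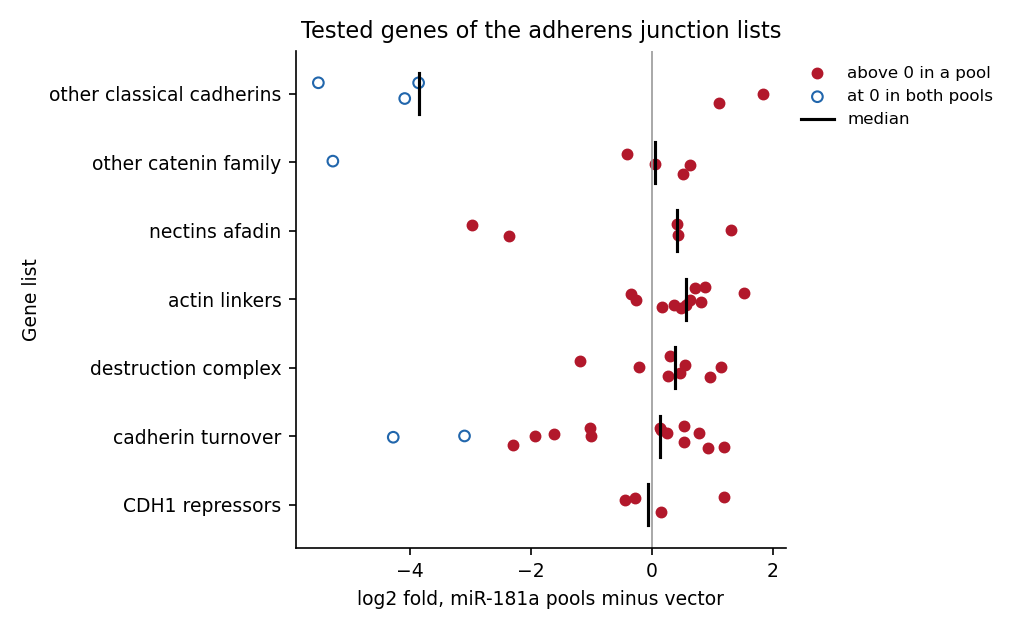
Mean log2 fold of the pools over the vector library (horizontal axis) for the 53 tested genes of 7 adherens junction lists (vertical axis), with black bars at the list medians. Open circles are the 6 genes at 0 in both pools, with log2 folds between -5.52 and -3.10.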

How the data were processed

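RNA sequencing gave 1 library of pBABE vector cells and 2 of miR-181a cells. The authors deposited a coverage signal on a linear scale for each RefSeq row. Per the labels' protocols, reads were mapped to hg19 and the median of a density profile in 50 bp windows was kept. A log transformation and quantile normalization are also named there, but the deposited signal is linear and no common scaling was assumed. An aligner is not given in the sources used here. Counts are not part of the deposited table, so depth is unknown, no counting interval is given, and the number of libraries limits the precision.

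Of 29156 rows, 308 with a blank vector value (none of a member) were left out, and date-like symbols (54 rows) were restored by accession. The row with the highest mean stood for a gene. Values were log2(coverage + 1). Genes at 0 throughout and the lowest 25% of the rest by mean were left out, and the others were tested with limma 3.58.1 in R 4.3.3 (pools against vector, eBayes with a variance trend, Benjamini-Hochberg at 0.05, checked on simulated data). The test assumes that vector libraries would vary like the pools. The simulated data gave all 3 libraries the same noise, taken from the pools, so they could not check that assumption. The size rule asks that both pools differ from the vector library by 1 log2 unit or more, with the same sign. Seed matches used GENCODE on GRCh37, the assembly of hg19 (98% of tested genes matched), and coordinates are from it. The members, the 12 gene lists and the rule for named genes (all members, list genes past the test or of largest fold up to 4, and the 3 nearest to CDH2) were chosen with earlier results of these data known, and 1 gene was left out of the lists and is not reported here. ADAM10, NCSTN and CDH24, and marker genes, were named after their values were seen. Alternatives covered the filter, pseudocount, scaling, row choice, variance model, size threshold and each pool left out.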

Additional observations from a re-analysis of the deposited data

How the results depend on the processing

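Of the 5 tested members, CDH2, CTNNA1 and CTNNB1 kept a fold above 0 in all 13 alternatives (1.70 to 4.15, 0.13 to 1.03 and 0.74 to 1.64). By limma CDH2 passed in 8 of 11 alternatives with a test (adjusted p 1.03e-44 to 0.0775), CTNNB1 in 4 and CTNNA1 in 2. CTNND1 turned to 0.24 with library medians set equal, 0.37 with the mean of rows and 0.48 with the row chosen without the vector value, and JUP to 0.17 with library medians set equal. Scaling moved the split of calls: over all genes 126 rose and 2726 fell, against 6355 and 3702 with library medians set equal, 5609 and 3326 with quantile normalization, and 685 and 5809 after the shift by genes with a pool mean above 50. These scalings bring the median folds of the 2 pools together, which lowers the spread used by the test. In that order, members that rose numbered 3, 3 and 2, against 1, and 2 members, CTNND1 and JUP, fell after the shift. Junction list genes that rose numbered 31, 32 and 8, against 0, and 20 fell after the shift, against 9. Genes higher by the size rule numbered 2188, 3364 and 61, against 318, members 1 after the shift, against 2, and junction genes 14, 14 and 0, against 4. List medians moved with scaling as well. For actin linkers, nectins with afadin, the destruction complex and cadherin turnover they were 0.09, -0.07, -0.10 and -0.34 after the shift. With library medians set equal they were 0.98, 0.83, 0.80 and 0.56, against 0.56, 0.41, 0.38 and 0.14.

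With no filter 278 genes rose and 5625 fell, 5718 were lower by size, 0 members rose, 2 fell (CDH6 and CDH11, at 0 in both pools) and 1 (CDH6) was lower by size, and 1 junction gene rose, 20 fell and 17 were lower by size, against 11. With a filter at the median 402 rose and 1476 fell, 1428 were lower by size, 2 members rose, 2 junction genes rose and 6 were lower by size. With a pseudocount of 0.1, 506 genes were higher by size. With 10, 63 genes were higher and 2282 lower by size, 0 members rose and 1 junction gene was higher by size. With no variance trend 0 members and 1 junction gene rose. With the row chosen without the vector value 4 junction genes fell and 7 were lower by size. With a size threshold of 0.5, 2225 genes and 14 junction genes were higher. With a filter on the pool mean, chosen after seeing the data, 215 rose, 774 fell, 815 were lower by size, 3 junction genes rose, 4 fell and 4 were lower by size. The filters test fewer or more genes, which changes these counts by construction, and for the others the cause was not tested. The log2 ratio of the classical cadherin sum, pool mean over vector, was -0.73, against -0.30 with the mean of rows and 0.32 with the row of lowest vector value, both chosen after seeing the data. Leaving out each pool leaves no residual degree of freedom and no test. The genes higher by size then ranged from 356 to 1305 and the junction genes from 4 to 11, the higher counts without pool 2. No paired analysis was possible because 1 vector library cannot be paired with 2 pools. Fold changes of rows near 0 and of genes at 0 in the pools are limited by the unknown depth.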
